A study of Danio rerio with 36 samples.

Results

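Axenic zebrafish larvae, raised without microbes, were compared with re-colonized larvae, which were made axenic and then given microbes on day 1, in the second of the study's 2 experiments. All 4 axenic libraries (1, 3, 4 and 7) and all 7 re-colonized libraries (1 to 7) of that experiment were taken, 11 of the 36 libraries in all, and every gene was considered. Each library was made from polyA-selected RNA of pooled heads, cut in front of the swim bladder from larvae of a mixed wild-type line kept at the US EPA, 10 days after fertilization. Because both groups went through the derivation that removes microbes, they differed by the presence of microbes after it. The study's question was the molecular basis of hyperactivity in axenic larvae, and it also held 7 conventionally colonized libraries in this experiment and a first experiment with 6 axenic and 6 re-colonized libraries from total RNA depleted of ribosomal RNA. The number of heads in a pool is not given. The labels do not state whether each pool had its own spawn, and p-values therefore measure only the spread between these pools, which may be technical.

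Microbes that settle in the gut and on the skin of a fish larva are known to stimulate innate immune cells and to alter how dietary fat is taken up, burned and stored. Fatty acid oxidation, sterol synthesis and the secretion of plasma proteins are mainly functions of liver, gut and muscle, while cell division and matrix deposition mark the growth of cartilage, bone and skin at this age. Macrophages, which in the brain are the microglia, and neutrophils carry much of the innate response to microbes.

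Total counts per library ran from 16059463 to 24856672 in axenic and from 18354320 to 23554870 in re-colonized libraries. Values are CPM, a gene's share of the library's counts after scaling by the trimmed mean of M-values (TMM). Called genes had a Benjamini-Hochberg adjusted p below 0.05 in edgeR's quasi-likelihood test, and fold changes are axenic against re-colonized on the log2 scale, with their standard error (SE). Re-colonized 1 and 7 stood apart from the other libraries, with TMM factors of 1.549 and 1.376 against 0.7694 to 1.208 elsewhere and with -88.2 and -63.2 on the first principal component of the 11 libraries (26.1% of the variance), where the other re-colonized libraries lay between -11.9 and 39.7 and the axenic ones between 24.9 and 50.6. Axenic 7 stood apart on the second component (21.9%), at 84.1 against -14.9 to 37.4 for the other 3 axenic libraries. Genes of brain neurons summed to 10500 to 15500 CPM in axenic and 10100 to 16700 CPM in re-colonized libraries and lens crystallins to 38400 to 72200 and 21600 to 86500 CPM, so head tissue was present in every pool. Pools also held transcripts of organs behind the head. Liver and hepatocyte markers summed to 15900 to 22600 CPM in axenic and 4350 to 20000 CPM in re-colonized libraries, and exocrine pancreas enzymes to 7500 to 21600 and 336 to 26600 CPM, with re-colonized 1 lowest in both. In such pools, fewer cells of a type and less RNA per cell cannot be told apart.

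Part of the genes for cell division, matrix, cartilage, fatty acid oxidation and plasma proteins were called higher in axenic than in re-colonized heads, and a small set of inflammatory, macrophage and stress-induced genes was called lower. Of 20169 genes tested, 785 (3.89%) were called, 656 higher (3.25%) and 129 lower (0.64%) in axenic heads. More than 2-fold changes were found in 511 and 71 of them, and the median log2 fold change was 1.33 among the higher, -1.07 among the lower and -0.0056 among all genes tested. All 4 axenic libraries lay above all 7 re-colonized libraries in 421 of the 656 genes called higher. They lay below them in 109 of the 129 called lower. The shares over all genes tested were 3.17% and 1.24%. Calls were made from these same libraries and favour such separation, so these counts are no independent evidence. Without axenic 7, 165 genes were called (139 higher, 26 lower), and without re-colonized 1 and 7 it was 368 (285 and 83). Axenic 7 was the highest axenic library in 493 of the 656 genes called higher (75.2%, against 34.2% of all genes tested), and re-colonized 1 or 7 was the lowest of its group in 365 of them (55.6%, against 32.9%). The direction of the 785 called genes did not change under any of the 19 alternative settings in which they were tested. These settings refit the same libraries or most of them, so called genes could hardly change direction.

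**Figure D1:**
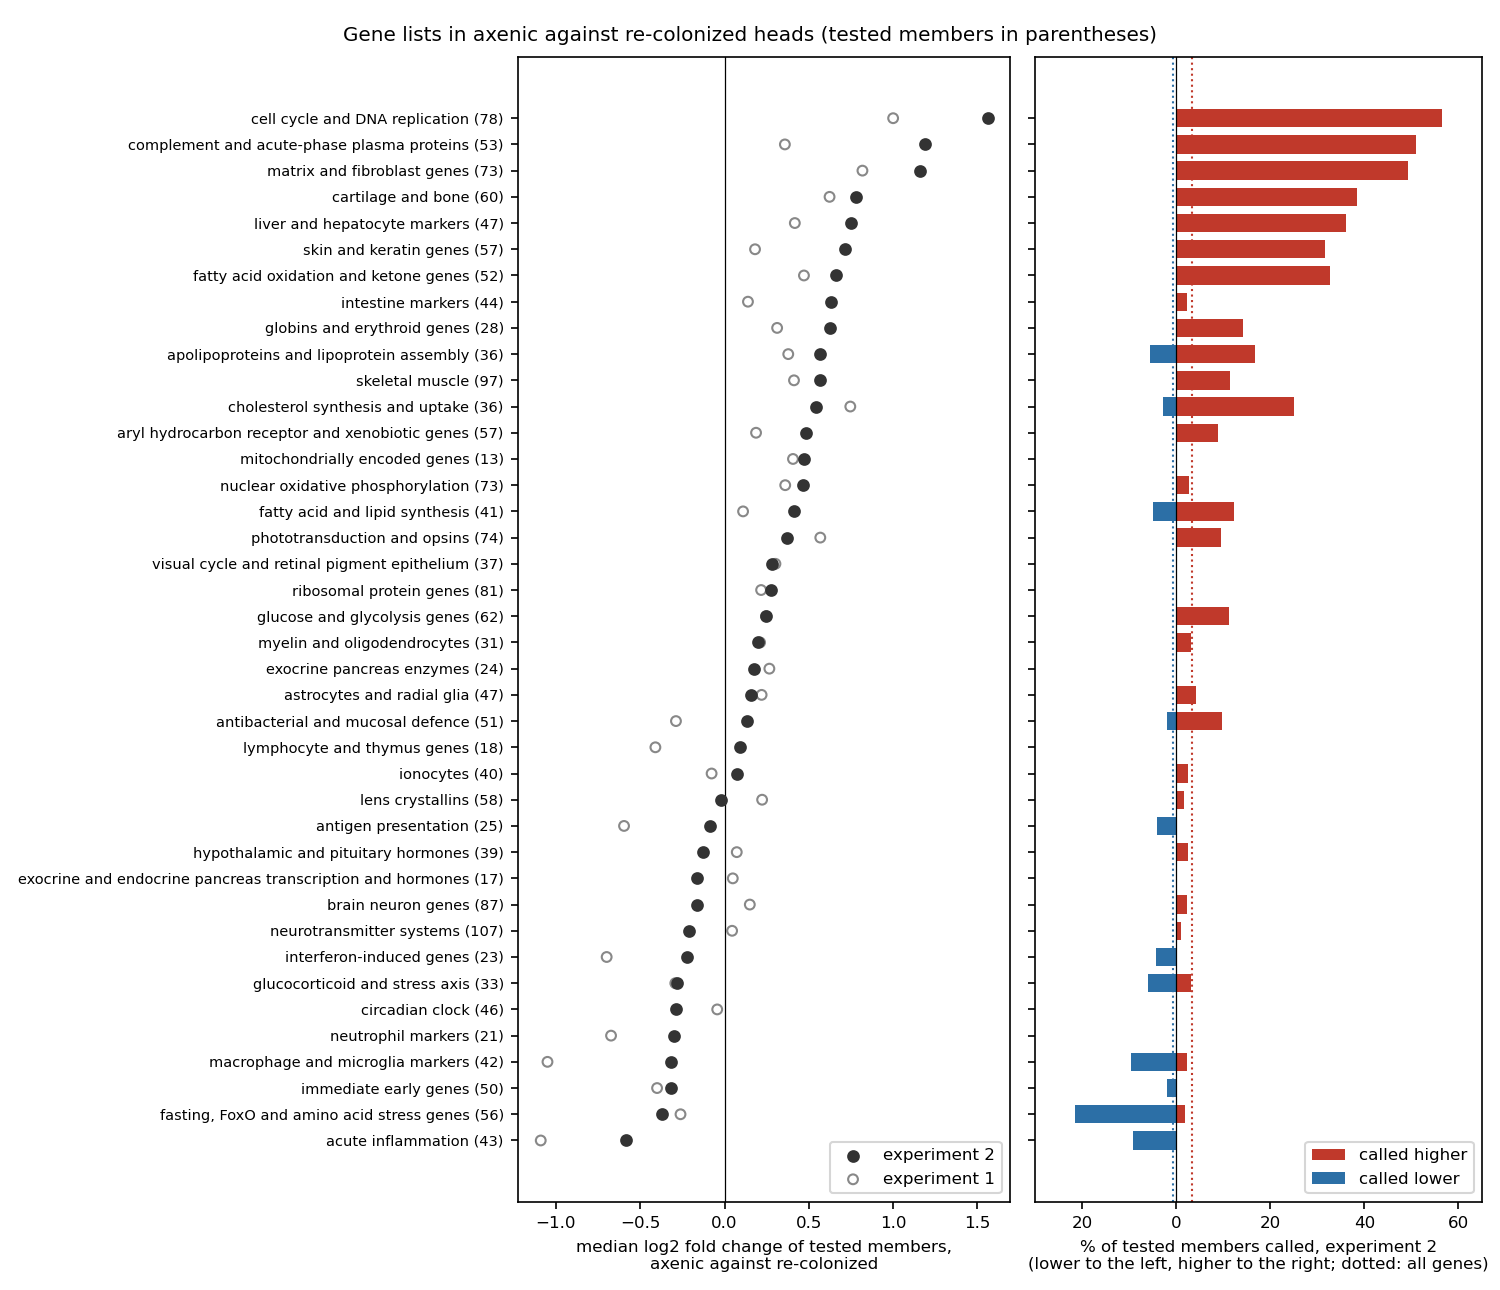
Median log2 fold change of the tested members of 40 gene lists (left; filled points experiment 2, open points experiment 1) and the percentage of tested members called in experiment 2 (right; higher in red, lower in blue, dotted lines at the 3.25% and 0.64% of all genes). Cell cycle genes have the highest median in experiment 2 at 1.56 and acute inflammation genes the lowest at -0.58.

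Fatty acid oxidation genes rose in 17 of 52 tested cases and fell in 0, with a median log2 fold change of 0.66. cpt1ab, a carnitine palmitoyltransferase that commits long-chain fatty acids to the mitochondrion (chromosome 25, 23591990 to 23645807, GRCz11), was at 18.1, 18, 30.5 and 34.4 CPM in axenic 1, 3, 4 and 7 and ran from 4.12 through a median of 4.65 to 6.75 CPM in re-colonized libraries. Every axenic library lay above every re-colonized one. Its log2 fold change was 2.24 (SE 0.27, edgeR adjusted p = 0.000174). hadhaa, the alpha subunit of the trifunctional protein of beta-oxidation (chromosome 20, 47953047 to 47984896), was at 20.5, 15.6, 31.1 and 35.2 CPM in axenic libraries and at 4.47 to 8.84 CPM, median 6.75, in re-colonized ones. The groups did not overlap, and axenic 7 was again highest. It rose by 1.97 (SE 0.23, edgeR adjusted p = 0.000174), and its copy hadhab rose by 1.64 (SE 0.19, edgeR adjusted p = 0.000174). angptl4 encodes a secreted inhibitor of lipoprotein lipase and is known from mice and zebrafish as a gene that microbes repress in the intestine. It lies on chromosome 2, 24536762 to 24542519, and was at 27.5, 25.3, 52.3 and 87.1 CPM in axenic against 4.26 to 10.4 CPM, median 8.25, in re-colonized libraries. No axenic value came near the re-colonized range, and axenic 4 and 7 were the highest. The log2 fold change was 2.62 (SE 0.36, edgeR adjusted p = 0.000312).

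Further steps of the same pathway were called higher, though not the whole list. Of its 52 tested genes, 41 had a fold change above 0 and 11 below 0, and 35 were not called. cpt1b, the muscle-type carnitine palmitoyltransferase (2.22, SE 0.31), cpt2 of the inner membrane (1.38), slc25a20, the carnitine carrier (1.43), the acyl-CoA dehydrogenases acadl (1.19) and acadvl (0.90), acaa2, a thiolase (1.5, SE 0.21), hadhb, the beta subunit of the trifunctional protein (1.23), eci2 (1.25) and decr1 (1.93), both for unsaturated fatty acids, and etfdh, which passes the electrons on (0.95), were called higher with edgeR adjusted p between 0.000319 and 0.0442. In 13 of the 17 called genes the groups did not overlap, beside 421 of all 656 genes called higher. In the file hadhaa and hadhb overlap each other and hadhab overlaps esrrb, on opposite strands. Since the use of strand in counting is not stated, their values are uncertain. The sum over the list went the other way. Axenic libraries were at 1900, 2240, 2450 and 1810 CPM, all below the re-colonized median of 2880 CPM. The re-colonized libraries ran from 999 CPM in re-colonized 1, which stood apart, and 2140 CPM in the next lowest to 3630 CPM. Without axenic 7, 9 genes of the list were called higher, and without re-colonized 1 and 7 it was 11.

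Sterol synthesis was higher at several steps. hmgcra, the rate-limiting reductase (chromosome 5, 50972485 to 50992776), was at 24.3, 88.7, 41.0 and 149 CPM in axenic libraries and at 7.40 to 18.1 CPM, median 10.7, in re-colonized ones. The groups did not overlap, but axenic libraries differed widely among themselves, with 3 and 7 high and 1 low. Its log2 fold change was 2.72 (SE 0.35, edgeR adjusted p = 0.000174). sqlea, squalene epoxidase, was at 1.84, 14.6, 5.77 and 25.0 CPM in axenic and at 0.812 to 2.68 CPM in re-colonized libraries (2.88, SE 0.47, edgeR adjusted p = 0.00107). Here axenic 1 lay within the re-colonized range. cyp51, lanosterol demethylase, was at 9.66, 40, 16.2 and 48.3 CPM against 2.71 to 8.04 CPM (2.4, SE 0.36, edgeR adjusted p = 0.000516), with the same order of axenic libraries. Of 36 tested genes of sterol synthesis and uptake, 9 rose, among them also hmgcs1 (1.65), lss (2.09) and sc5d (2.71), and 1 fell, mylipa, a ubiquitin ligase known in mammals to degrade the low-density lipoprotein receptor (-1.07, SE 0.20, edgeR adjusted p = 0.0032). The list's median was 0.54, and without axenic 7 its count of higher genes was 4, without re-colonized 1 and 7 it was 5. In the file hmgcra overlaps kat5b on the opposite strand.

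Among lipid synthesis and lipoprotein genes the directions were mixed. fads2, the desaturase of polyunsaturated fatty acids, was at 10.7, 22, 29.3 and 69.2 CPM in axenic against 1.93 to 10.6 CPM in re-colonized libraries (2.37, SE 0.46, edgeR adjusted p = 0.00449). The lowest axenic value lay just above the highest re-colonized one, and the call was lost without axenic 7 (edgeR adjusted p = 0.0916). The elongases elovl2 (1.76), elovl4b (1.07), elovl6 (0.82) and elovl8a (1.13) were also called higher. In contrast srebf1, a transcription factor of lipid synthesis, was at 48.7, 48.9, 50.4 and 54.5 CPM in axenic and at 80.8 to 121 CPM, median 105, in re-colonized libraries. Every axenic value lay below the re-colonized range, and the 4 differed little (-1.04, SE 0.18, edgeR adjusted p = 0.00151). lpl, lipoprotein lipase, fell by 1.03 (SE 0.26, edgeR adjusted p = 0.0239), and pltp, the phospholipid transfer protein of plasma, fell by 1.34 (SE 0.19, edgeR adjusted p = 0.000324), from 63.2 to 105 CPM in re-colonized to 28.1 to 37.9 CPM in axenic libraries. lpl was not called without axenic 7 (edgeR adjusted p = 0.0784) or without re-colonized 1 and 7 (0.0863). Over the 41 tested genes of lipid synthesis, 5 rose and 2 fell (median 0.41). Without axenic 7, 0 of them were called higher by edgeR and 1 lower (median 0.10), so neither fads2 nor any of the 4 elongases was called there, and without re-colonized 1 and 7 it was 2 and 1.

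apobb.2, an apolipoprotein B gene, had the largest fold change among named genes (chromosome 20, 53439665 to 53470253). It was at 4.93, 22, 21 and 86.2 CPM in axenic libraries and at 0.143 to 6.63 CPM, median 0.696, in re-colonized ones. Axenic 1 lay within the re-colonized range, whose highest value was that of re-colonized 6. The log2 fold change was 4.49 (SE 0.81, edgeR adjusted p = 0.00246), and without axenic 7 the edgeR adjusted p was 0.0501. apoba, another gene of apolipoprotein B, was at 136, 262, 401 and 748 CPM in axenic against 46.9 to 109 CPM in re-colonized libraries, without overlap (2.41, SE 0.33, edgeR adjusted p = 0.000243). apoa1b, of high-density lipoprotein, rose by 1.93 (SE 0.31, edgeR adjusted p = 0.000845). Of 36 apolipoprotein and lipoprotein assembly genes tested, 6 rose and 2 fell, pltp and abca1a, a cholesterol exporter (-0.85), and the median was 0.57. Without axenic 7, 2 were called higher and 1 lower, and without re-colonized 1 and 7, 4 and 2. Reads of the apolipoprotein B genes could be split between copies, so their values are uncertain.

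Plasma protein genes of the liver were higher in axenic heads. a2ml, an alpha-2-macroglobulin-like protease inhibitor (chromosome 15, 21113965 to 21132481), was at 50.2, 85.6, 124 and 327 CPM in axenic 1, 3, 4 and 7, and at 13.0 to 25.4 CPM, median 20.7, in re-colonized libraries. tfa, transferrin (chromosome 2, 16780643 to 16794711), was at 53.0, 129, 168 and 338 CPM against 20.9 to 39.9 CPM, median 29.8. Both genes kept the groups apart, and both were lowest in axenic 1 and highest in axenic 7. a2ml rose by 2.88 (SE 0.37) and tfa by 2.58 (SE 0.33), each with edgeR adjusted p = 0.000174. hpx, hemopexin, which binds free heme, was at 0.846, 3.47, 0.604 and 12.8 CPM in axenic and at 0 to 0.44 CPM in re-colonized libraries (4.04, SE 0.81, edgeR adjusted p = 0.00542), a call that was lost without axenic 7 (edgeR adjusted p = 0.215). Further genes of the list included c9 of the membrane attack complex (1.84), c5 (1.79), the C3 genes c3a.2 (2.12) and c3b.2 (1.56), the factor H-like genes cfhl1 (2.46) and cfhl2 (2.16), ahsg1, a fetuin (1.59), f2, prothrombin (1.42), and fgb of fibrinogen (1.31). a2ml, the C3 genes and the factor H-like genes have close copies, and their values are uncertain.

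In total 27 of 53 complement and acute-phase genes rose and 0 fell, with a median of 1.19. The groups were apart in only 10 of the 27, beside 421 of all 656 genes called higher. Without axenic 7, 6 of the list were called, and without re-colonized 1 and 7, 16. Liver and hepatocyte markers were called higher in 17 of 47 cases and lower in 0 (median 0.75), and 8 were called without axenic 7 and 10 without re-colonized 1 and 7. cps1, the first enzyme of the urea cycle, was at 13.6, 8.22, 13.9 and 8.07 CPM in axenic against 1.22 to 4.93 CPM in re-colonized libraries, without overlap (1.65, SE 0.27, edgeR adjusted p = 0.00123). ces3, a carboxylesterase, rose by 2.72 (SE 0.53, edgeR adjusted p = 0.00421, 0.0847 without axenic 7). habp2, a serine protease of plasma that was on no list, was at 4.83, 5.19, 6.78 and 10.6 CPM in axenic libraries and at 1.37 to 1.93 CPM in re-colonized ones (2.12, SE 0.28, edgeR adjusted p = 0.000174). gck, glucokinase, on the glucose list, was at 1.49, 2.58, 10.7 and 2.90 CPM against 0 to 1.27 CPM, and axenic 4 alone was far above the rest (3.27, SE 0.60, edgeR adjusted p = 0.00289). Beside these values stand the markers of organs behind the head. The summed liver list overlapped between the groups (15900 to 22600 against 4350 to 20000 CPM), intestine markers summed to 2130 to 3650 and 548 to 2970 CPM with 1 of 44 genes called (higher), and 0 of 24 exocrine pancreas enzymes were called. The part of such tissue in the higher plasma protein genes was not tested.

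**Figure D2:**
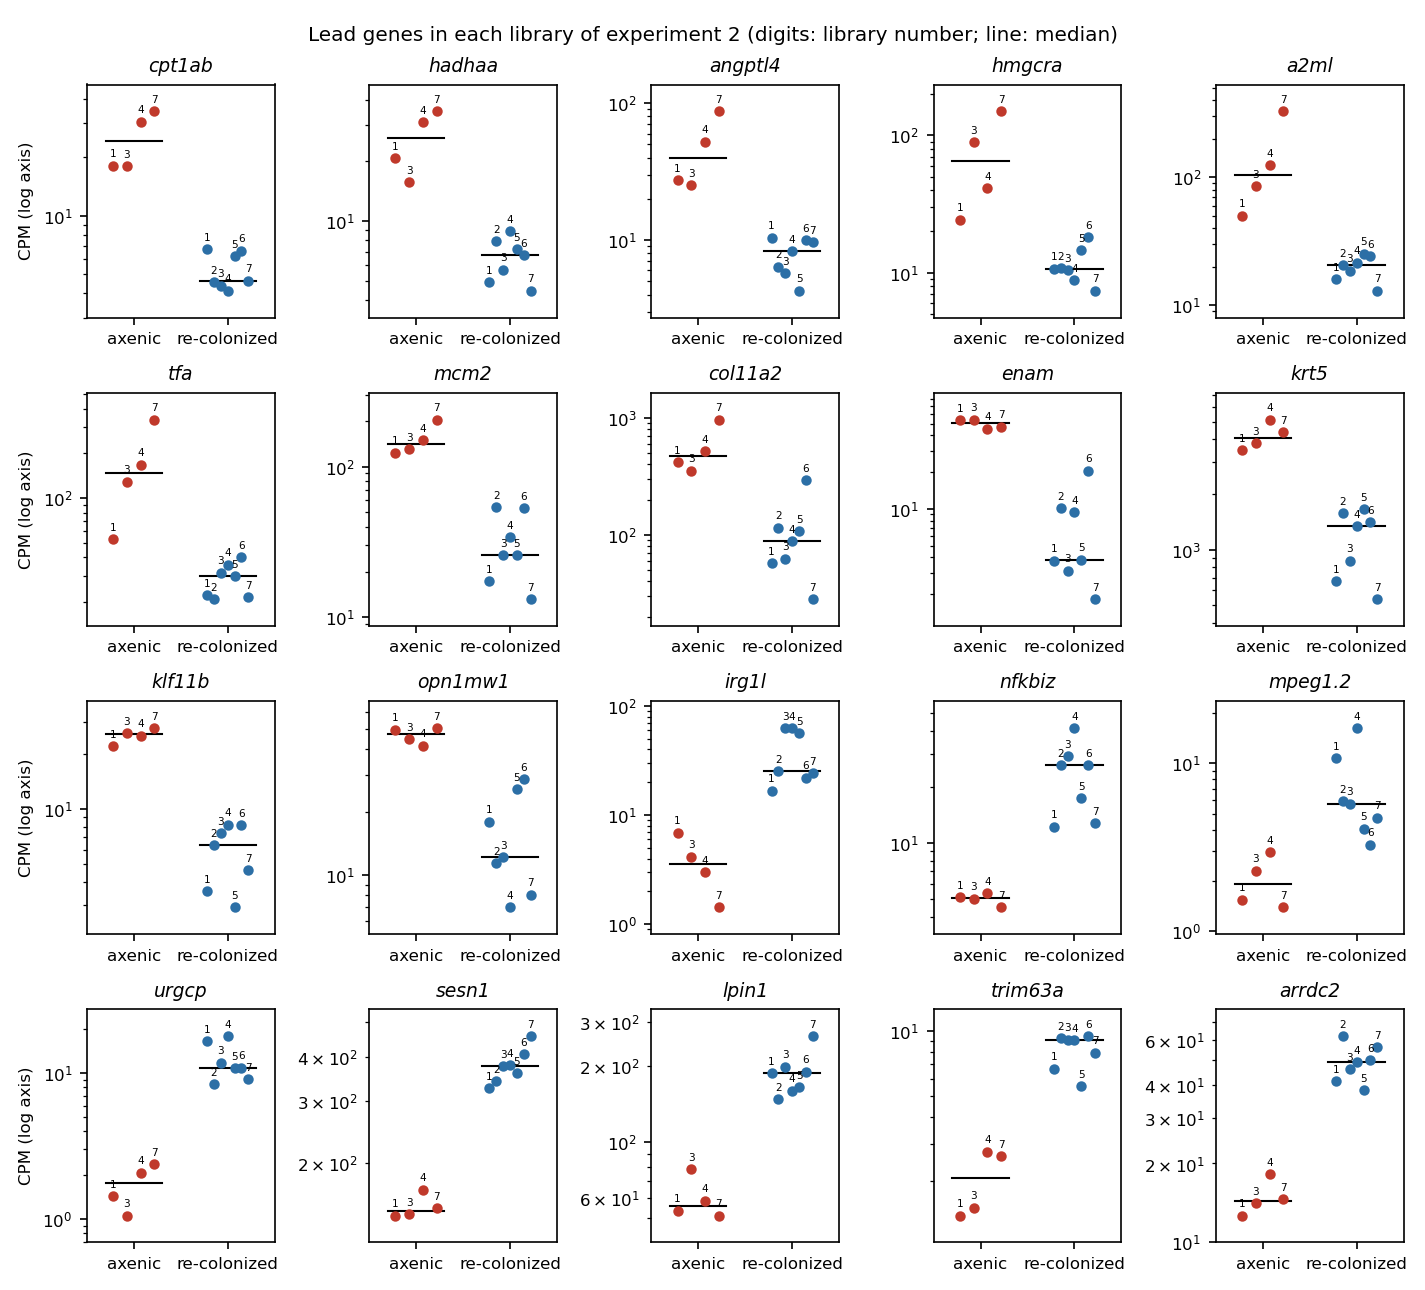
CPM (log axis) of 20 genes in the 4 axenic and 7 re-colonized libraries of experiment 2, with the library number beside each point and a line at the group median. The 20 genes were picked by hand from the named genes, and the groups do not overlap in any of them. Over all called genes the groups do not overlap in 421 of 656 called higher and 109 of 129 called lower. Axenic 7 is highest in cpt1ab, hadhaa, angptl4, hmgcra, a2ml, tfa, mcm2, col11a2, klf11b, opn1mw1 and urgcp.

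Cell division genes formed the list with the highest median, 1.56, and 44 of 78 rose while 0 fell. mcm2, a subunit of the replicative helicase (chromosome 22, 5632029 to 5655681), was at 124, 131, 150 and 205 CPM in axenic and at 13.2 to 53.5 CPM, median 25.7, in re-colonized libraries. Axenic values lay close together and above the whole re-colonized range, in which re-colonized 7 was lowest. The log2 fold change was 2.26 (SE 0.34, edgeR adjusted p = 0.000499). mki67, a nuclear protein of dividing cells, was at 26.3 to 93.1 CPM in axenic libraries, highest in axenic 7, against 5.61 to 23.2 CPM, median 8.44 (2.25, SE 0.34, edgeR adjusted p = 0.000499). The groups touched closely without overlap. The DNA polymerase subunits pola1 (1.5) and pole (1.89), the helicase subunits mcm3 (2.11), mcm4 (1.61), mcm5 (2.21) and mcm6 (2.07), rrm1 of ribonucleotide reductase (1.91), the cyclins ccna2 (2.24) and ccnb1 (2.02), pcna, the sliding clamp (1.29), and uhrf1, a cofactor of DNA methylation (1.91), were called too, with edgeR adjusted p between 0.000312 and 0.0295. Nucleotide supply was represented by tyms, thymidylate synthase (3.26), and by tk1, thymidine kinase, outside the list (2.80), at 0.671 to 5.32 and 2.14 to 9.30 CPM in axenic libraries. In tk1 the groups overlapped, and its call was lost without axenic 7 (edgeR adjusted p = 0.161). Summed over the list, axenic libraries were at 1480 to 2200 CPM and re-colonized ones at 466 to 1150 CPM. In 33 of the 44 called genes the groups were apart, beside 421 of all 656 genes called higher. Of the list, 20 genes were called without axenic 7 and 30 without re-colonized 1 and 7. smarca5, a chromatin remodelling ATPase outside the list, was at 57.6, 50.4, 68.9 and 99.7 CPM in axenic against 19.5 to 31.6 CPM in re-colonized libraries, without overlap (1.48, SE 0.19, edgeR adjusted p = 0.000174).

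On the cartilage and bone list 23 of 60 genes rose and 0 fell (median 0.78), and on the matrix and fibroblast list 36 of 73 rose and 0 fell (median 1.16). A fold change below 0 was seen in 13 and 2 of their genes, none of them called. col11a2, a collagen of cartilage fibrils (chromosome 19, 7179740 to 7225207), was at 421, 353, 517 and 966 CPM in axenic libraries and ran from 28.3 through 88.4 to 294 CPM in re-colonized ones. Re-colonized 6 was highest and re-colonized 7 lowest of their group, yet all lay below the axenic values. It rose by 2.39 (SE 0.47, edgeR adjusted p = 0.0049, 0.0598 without axenic 7). enam, annotated as the enamel matrix gene enamelin (chromosome 1, 43901966 to 43905264), was at 53.6, 53.9, 45.6 and 47.1 CPM against 1.82 to 20.5 CPM, median 3.82. Its axenic values were nearly equal and all above the re-colonized range (2.74, SE 0.48, edgeR adjusted p = 0.00178). ifitm5, a membrane protein of bone-forming cells, was at 12.7, 16.6, 10.9 and 16.7 CPM in axenic and at 0.643 to 5.22 CPM in re-colonized libraries, without overlap (2.64, SE 0.40, edgeR adjusted p = 0.000499). hapln1a, a link protein that joins hyaluronan to proteoglycans, was at 16, 23.3, 24.2 and 49.1 CPM against 2.68 to 9.99 CPM (2.3, SE 0.30, edgeR adjusted p = 0.000175).

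The main collagen of cartilage, col2a1a, was at 5740, 5490, 6410 and 9270 CPM in axenic and at 507 to 3910 CPM, median 1440, in re-colonized libraries (2.00, SE 0.41, edgeR adjusted p = 0.00591). The hypertrophic cartilage collagens col10a1a (2.57) and col10a1b (2.88), the minor fibril collagens col9a1a (1.71), col9a2 (1.47), col9a3 (2.37) and col11a1a (2.15), panx3, a channel of skeletal cells (2.22), and entpd5a, a nucleotidase needed for mineralization in zebrafish (2.17), were called as well. Among matrix genes col6a3 of microfibrils was at 114, 91.2, 129 and 247 CPM against 15.8 to 53.6 CPM, without overlap (2.28, SE 0.34, edgeR adjusted p = 0.000484). The fibrillar collagens col1a1a (1.75), col1a2 (1.68) and col5a1 (1.66), the periostin genes postna (2.4) and postnb (2.65), lum, lumican (1.87), tnc, tenascin C (1.19), and mmp2, a matrix protease (1.78), changed the same way with edgeR adjusted p between 0.000499 and 0.0195. Groups were apart in 20 of the 23 and 32 of the 36 called genes, beside 421 of all 656 genes called higher. The sums were 10200 to 18000 CPM in axenic against 1620 to 7770 CPM in re-colonized libraries for cartilage and bone, and 14300 to 19500 against 2880 to 9820 CPM for matrix. Without axenic 7, 9 and 16 genes of these lists were called, and without re-colonized 1 and 7, 16 and 22. cthrc1b, a collagen triple helix repeat protein (3.01), and col7a1, the collagen of anchoring fibrils in skin (2.89), both on neither list, were called, but not without axenic 7 (edgeR adjusted p = 0.184 and 0.0662). The collagen X genes have close copies, so their values are uncertain.

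**Figure D3:**
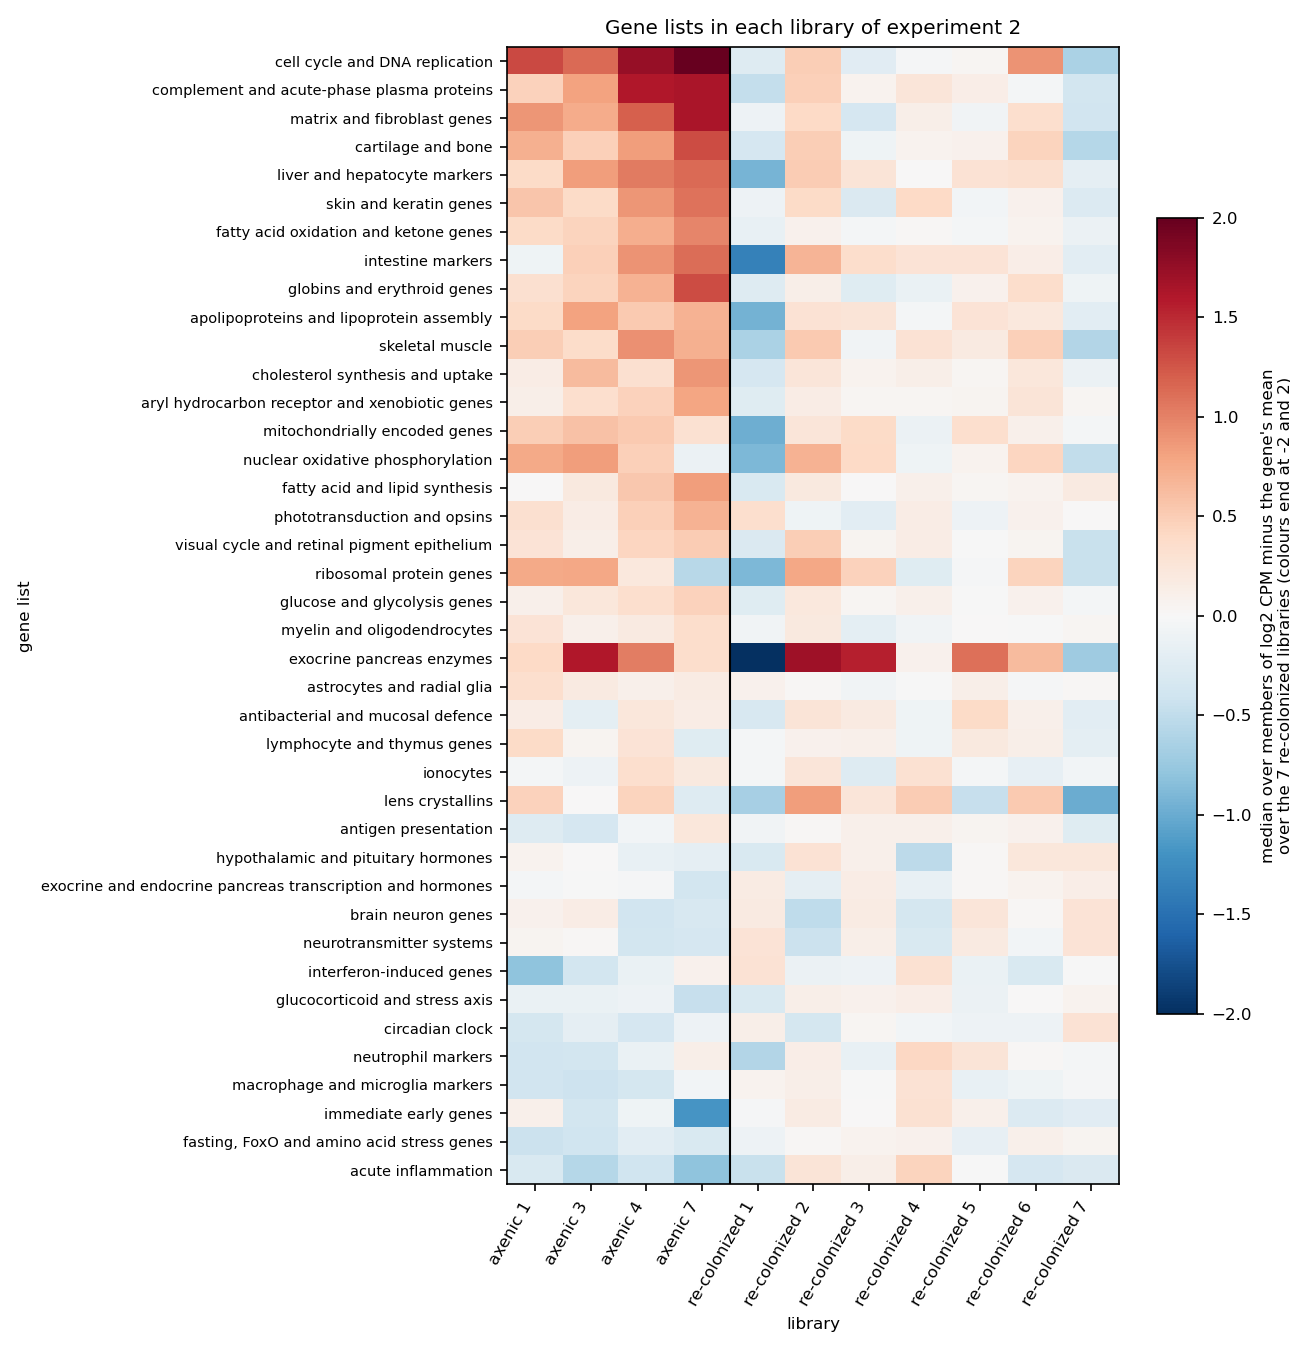
Median over the tested members of each gene list of log2 CPM minus the gene's mean over the 7 re-colonized libraries, for the 11 libraries of experiment 2 (columns; colours end at -2 and 2). Cell cycle genes stand at 1.13 to 2.3 in the 4 axenic libraries and at -0.64 to 0.90 in the re-colonized ones, and exocrine pancreas enzymes in re-colonized 1 at -4.35.

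Genes of skin, muscle, blood and phototransduction were called higher in part, beside 3.25% called higher over all genes. On the skin and keratin list 18 of 57 rose and 0 fell (median 0.72). krt5, an epidermal keratin, was at 3500, 3800, 5120 and 4380 CPM in axenic and at 538 to 1660 CPM, median 1340, in re-colonized libraries, of which 7 and 1 were lowest. No value of one group lay in the range of the other (1.86, SE 0.28, edgeR adjusted p = 0.000499). krt4 rose by 1.66 (SE 0.30, edgeR adjusted p = 0.00253), and lamb4, a laminin chain, rose by 1.53 (SE 0.30, edgeR adjusted p = 0.00438, 0.0596 without axenic 7). Without axenic 7, 3 skin genes were called higher, and without re-colonized 1 and 7, 10. Keratin genes are close copies of each other and their values are uncertain.

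Skeletal muscle genes were called higher in 11 of 97 cases (median 0.56), and 2 were called without axenic 7 and 3 without re-colonized 1 and 7. acta1b, a muscle actin, was at 468, 428, 406 and 292 CPM against 117 to 215 CPM, without overlap, and here axenic 7 was the lowest of its group (1.31, SE 0.22, edgeR adjusted p = 0.0014). myl10, a myosin light chain, rose by 1.24 (SE 0.23, edgeR adjusted p = 0.00276). Of 28 globin and erythroid genes 4 rose (median 0.63), among them the embryonic globin gene hbae1.3 (1.72) and alas2, of heme synthesis in red cells (1.36), and without axenic 7 it was 0. Phototransduction genes rose in 7 of 74 cases (median 0.37), with 1 called without axenic 7 and 4 without re-colonized 1 and 7. Leaving out axenic 1, axenic 4 or re-colonized 7 gave 3 each. opn1mw1, a green-sensitive cone opsin, was at 49.6, 44.7, 41.6 and 50.5 CPM in axenic and at 7.01 to 28.8 CPM, median 12.2, in re-colonized libraries, which fell into no common level but all lay below the axenic values (1.55, SE 0.31, edgeR adjusted p = 0.00524). opn1lw2, red-sensitive, rose by 1.65 (SE 0.38, edgeR adjusted p = 0.0142, 0.0893 without axenic 7). Opsin copies can share reads. Of 58 lens crystallins 1 was called (crygm2e, 1.23), with a list median of -0.018, and of 37 visual cycle genes 0 were called by edgeR. Both counts stand beside 3.25% called higher over all genes.

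klf11b, a Krüppel-like transcription factor (chromosome 17, 32365941 to 32370048), belonged to none of these groups and was among the genes with the smallest adjusted p. It was at 22, 26, 25.2 and 27.8 CPM in axenic and at 2.90 to 8.20 CPM, median 6.35, in re-colonized libraries. The axenic values were nearly equal and lay far above the others. The gene overlaps esrrb in the file. The log2 fold change was 2.11 (SE 0.26, edgeR adjusted p = 0.000174).

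Inflammatory genes stood lower in axenic heads as a list, but few passed the test one by one. Of 43 acute inflammation genes tested, 4 fell and 0 rose, 36 had a fold change below 0 and 7 above, and the median was -0.58, against -0.0056 over all genes. irg1l, a copy of the itaconate enzyme gene acod1 (chromosome 14, 11427052 to 11430611), was at 6.92, 4.17, 3.02 and 1.43 CPM in axenic and at 16.8 to 63.1 CPM, median 25.3, in re-colonized libraries. All axenic values lay below the re-colonized range, in which 3, 4 and 5 were highest. It fell by 3.31 (SE 0.73, edgeR adjusted p = 0.0103, 0.0775 without axenic 7). nfkbiz, a nuclear regulator of NF-kappaB target genes (chromosome 1, 18716 to 23390), was at 5.08, 4.99, 5.37 and 4.49 CPM against 12.2 to 41.6 CPM, median 26.1. Its axenic values were nearly identical, while the re-colonized ones varied and stayed above them (-2.25, SE 0.44, edgeR adjusted p = 0.00422). nox1, an NADPH oxidase that makes superoxide, fell by 1.69 (SE 0.39, edgeR adjusted p = 0.0158), and stat4, a transcription factor of cytokine signalling, fell by 1.45 (SE 0.35, edgeR adjusted p = 0.0198). Neither was called without axenic 7 (edgeR adjusted p = 0.111 and 0.101).

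Other inflammatory genes did not pass. il1b, the gene of interleukin-1 beta, was at 0.0397 to 0.268 CPM in axenic and 0.31 to 3.13 CPM in re-colonized libraries, apart but low (-2.66, SE 0.87, edgeR adjusted p = 0.101). nos2a, inducible nitric oxide synthase, was at 0.199 to 0.368 against 0.929 to 2.49 CPM (-2.71, SE 1.13, edgeR adjusted p = 0.237). mmp9, a protease of inflamed tissue, was at 5.76 to 16.2 CPM in axenic and 9.75 to 107 CPM in re-colonized libraries (-1.63, SE 0.57, edgeR adjusted p = 0.136). acod1 itself was at 0.0671 to 0.796 and 0.364 to 1.02 CPM (-0.65, SE 0.61, edgeR adjusted p = 0.689). The antiviral gene mxf was called (-3.23, edgeR adjusted p = 0.0458), at 0 to 0.164 CPM in axenic and 0.406 to 1.09 CPM in re-colonized libraries, and was the 1 of 23 interferon-induced genes called. Without axenic 7, 1 gene of the inflammation list was called lower, and without re-colonized 1 and 7, 4.

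Macrophage genes were divided. Of 42 markers 4 fell, 1 rose and 33 had a fold change below 0 (median -0.32). mpeg1.2, a perforin of macrophages (chromosome 8, 19356072 to 19359835), was at 1.54, 2.29, 2.95 and 1.39 CPM in axenic and at 3.28 to 16.2 CPM, median 5.75, in re-colonized libraries. The groups came close without overlap, and re-colonized 1 and 4 were far above the rest (-1.83, SE 0.51, edgeR adjusted p = 0.0428). marco, a scavenger receptor, was at 0.697 to 0.939 CPM against 1.1 to 3.92 CPM (-1.38, SE 0.39, edgeR adjusted p = 0.0474). spi1a, a myeloid transcription factor (-2.18), and ctss2.1, a cathepsin S (-3.09), were called at under 0.25 CPM in every axenic library. Without axenic 7, 0 of these markers were called lower by edgeR, and without re-colonized 1 and 7, 1 was. The related mpeg1.1 was at 1.19 to 3.5 and 2.60 to 4.75 CPM (-0.31, SE 0.36, edgeR adjusted p = 0.762), and csf1ra, a receptor that macrophages need, at 5.03 to 9.02 and 6.68 to 12.1 CPM (-0.45, SE 0.27, edgeR adjusted p = 0.469). gpnmb, a glycoprotein of macrophages and pigment cells, was called higher (1.38, SE 0.28, edgeR adjusted p = 0.00569, 0.142 without axenic 7). No neutrophil marker was called of 21 by edgeR (0), and mpx, the neutrophil myeloperoxidase, was at 28.8 to 46.8 CPM in axenic and 21.6 to 143 CPM in re-colonized libraries (-0.99, SE 0.40, edgeR adjusted p = 0.213).

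Genes that cells induce in fasting, under FoxO factors or in amino acid stress had more genes called lower than any other of the 40 lists, with 12 of 56 falling, 1 rising and a median of -0.37. sesn1, a sestrin that restrains mTOR signalling (chromosome 20, 32152355 to 32231158), was at 142, 143, 168 and 149 CPM in axenic and at 325 to 457 CPM, median 376, in re-colonized libraries. The groups were far apart and each was tight (-1.33, SE 0.19, edgeR adjusted p = 0.000319). trim63a, a ubiquitin ligase of muscle wasting, was at 1.39, 1.51, 2.75 and 2.62 CPM against 5.54 to 9.46 CPM (-1.98, SE 0.31, edgeR adjusted p = 0.000652). fbxo32, another such ligase, was at 0.697, 0.858, 2.15 and 1.67 CPM against 2.35 to 6.92 CPM (-1.88, SE 0.38, edgeR adjusted p = 0.00568). Both had their 2 higher axenic values in axenic 4 and 7, still below every re-colonized one. ddit4, an inhibitor of mTOR signalling (-1.55), trib3, a pseudokinase of amino acid stress (-1.14), nupr1b, a stress-induced nuclear protein (-2.45), gadd45ba, of growth arrest (-1.35), and the insulin receptor substrates irs2a (-0.97) and irs2b (-1.01) were called with edgeR adjusted p between 0.00177 and 0.011. The 1 that rose was aldh18a1, an enzyme of proline synthesis (0.69). This list had 5 lower calls without axenic 7 and had 14 without re-colonized 1 and 7, and its sums were 2280 to 3040 CPM in axenic and 2930 to 4470 CPM in re-colonized libraries.

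Outside that list the lower genes with the smallest adjusted p were arrdc2, lpin1, urgcp, pltp (above) and mknk2b. arrdc2, an arrestin-domain protein, was at 12.6, 14.1, 18.2 and 14.6 CPM in axenic and at 38.4 to 61.9 CPM in re-colonized libraries (-1.72, SE 0.21, edgeR adjusted p = 0.000174). lpin1, a phosphatidate phosphatase that also acts in transcription, was at 53.6, 78.1, 58.8 and 51.3 CPM against 148 to 263 CPM (-1.63, SE 0.22, edgeR adjusted p = 0.000203). mknk2b, a kinase of the translation factor eIF4E, was at 168, 203, 213 and 203 CPM against 430 to 669 CPM (-1.37, SE 0.20, edgeR adjusted p = 0.000338). In all 3 genes the groups were apart by more than the width of the axenic group. arrdc2, lpin1 and sesn1 overlap other genes in the file, and their values are uncertain to that extent. urgcp was at 1.44, 1.06, 2.08 and 2.38 CPM in axenic and at 8.38 to 17.9 CPM in re-colonized libraries (-2.81, SE 0.38, edgeR adjusted p = 0.000279). klf9, a glucocorticoid-induced transcription factor, fell by 1.42 (SE 0.34, edgeR adjusted p = 0.0186, 0.121 without axenic 7), and of 33 glucocorticoid and stress axis genes 2 fell and 1 rose, oxt, of the hormone oxytocin (0.94). Over all genes 0.64% were called lower and 3.25% higher. In oxt the groups overlapped (30.3 to 44.9 CPM in axenic, 12.8 to 30.9 CPM in re-colonized libraries). It was not called in experiment 1 (0.52, edgeR adjusted p = 0.169). Leaving out each library in turn gave 0 to 1 higher calls for this list. Of 50 immediate early genes 1 fell, gadd45ba, and 44 had a fold change below 0 (median -0.32). In axenic 7 their median stood at -1.18 relative to re-colonized libraries and in the other 3 axenic libraries between -0.36 and 0.10. The circadian clock list had 0 called of 46 by edgeR.

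Genes of nerve cells and glia were called in experiment 2 at about the share of all genes (3.25% higher, 0.64% lower). Of 87 brain neuron genes 2 rose, tuba1a, a neuronal tubulin (1.28, SE 0.26, edgeR adjusted p = 0.00541), and atp1a3b, a sodium pump subunit (0.90, SE 0.23, edgeR adjusted p = 0.0295), and the median was -0.16. Of 107 genes of neurotransmitter systems 1 rose, comta, which degrades catecholamines (1.09, SE 0.30, edgeR adjusted p = 0.0435), and the median was -0.21. A fold change below 0 was seen in 59 of the neuron genes and 86 of the neurotransmitter genes. Against conventional heads the medians of these 2 lists were 0.21 and 0.139 in axenic heads and 0.346 and 0.295 in re-colonized heads. elavl3, a marker of neurons, averaged 252 CPM in axenic and 292 CPM in re-colonized libraries (-0.21, SE 0.33, edgeR adjusted p = 0.8288). Glial lists had 2 of 47 genes called, both higher (astrocytes and radial glia, with fabp7a at 1.06), and 1 of 31 (myelin and oligodendrocytes, cspg4 at 1.63). cspg4, known from oligodendrocyte precursors, was at 19.1 to 61.6 CPM in axenic against 7.47 to 15.6 CPM in re-colonized libraries. The other 30 genes of its list were not called, among them pdgfra (0.42), olig1 (0.26), olig2 (0.11), sox10 (0.02) and nkx2.2a (-0.56). A change in that cell type is therefore not shown by cspg4 alone. Without axenic 7 the edgeR adjusted p was 0.438 for comta, 0.0217 for tuba1a and 0.0585 for atp1a3b. Of the ribosomal protein (81) and mitochondrially encoded genes (13) 0 were called by edgeR, and of 73 nuclear genes of oxidative phosphorylation 2 were.

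The 10 most abundant transcripts of these libraries, among them the elongation factor gene eef2b, the actin gene actb2 and the crystallin gene crybb1l2, had fold changes between -0.33 and 0.31 and none was called (edgeR adjusted p between 0.729 and 0.949). Their SE of 0.26 to 0.47 left changes of that size undetectable. The biological coefficient of variation was 35.5% in this experiment.

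The first experiment asked the same question in other libraries. There 3342 of 19727 genes (16.9%) were called, 1710 higher (8.67%) and 1632 lower (8.27%), at a biological coefficient of variation of 16.5%. Of the genes called in experiment 2 and tested in experiment 1, 611 of 629 higher ones (97.1%) and 127 of 129 lower ones (98.4%) had the same sign there. The share with the same sign over all genes tested in both experiments was not computed. Called in both with the same sign were 514 genes (416 higher, 98 lower), which is 65.5% of the calls of experiment 2 and 15.4% of those of experiment 1, and without re-colonized 1 and 7 it was 279. The 1 gene called in opposite directions was capn9, a calpain, which rose by 1.32 (SE 0.28, edgeR adjusted p = 0.00799) in experiment 2 and fell by 0.48 (edgeR adjusted p = 0.0292) in experiment 1. It was at 34.2 to 55.5 CPM in axenic and 9.83 to 28.2 CPM in re-colonized heads of experiment 2.

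**Figure D4:**
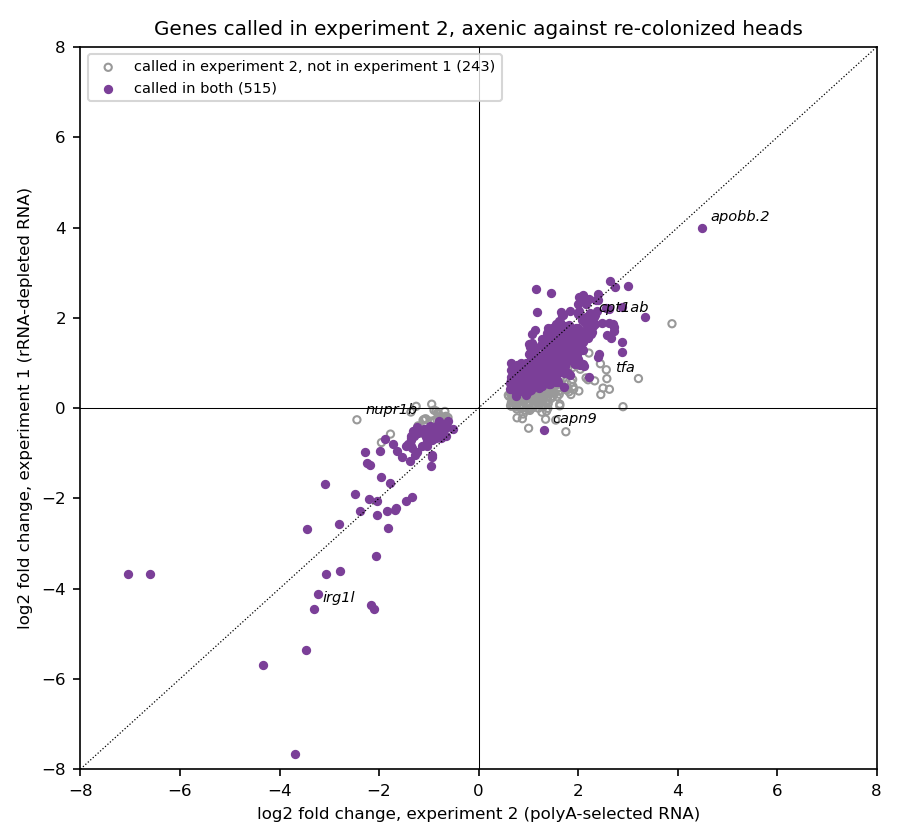
Log2 fold changes of axenic against re-colonized heads in experiment 2 (horizontal) and experiment 1 (vertical) for genes called in experiment 2 and tested in both; purple points were called in both and the dotted line marks equal fold changes. Points lie in the lower left and upper right with few exceptions, such as capn9 at 1.32 and -0.48.

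Fold changes of the lead genes were close between the experiments for some groups and not for others. In experiments 2 and 1 they were 4.49 and 4 for apobb.2, 2.74 and 2.69 for enam, 2.39 and 2.4 for col11a2, 2.24 and 2 for cpt1ab, 2.62 and 2.19 for angptl4, 2.11 and 2.45 for klf11b, and -2.81 and -2.56 for urgcp. Part of the named genes were chosen for large fold changes of the same sign, called in both experiments. Closeness among named genes is therefore no independent evidence. Plasma protein genes had larger values in experiment 2, with 2.58 and 0.65 for tfa (edgeR adjusted p = 0.0545 in experiment 1) and 2.88 and 1.25 for a2ml. The list medians were 1.19 and 0.36 for complement and acute-phase genes, 1.56 and 1.00 for cell cycle genes, and 0.72 and 0.18 for skin genes. Of 57 skin genes tested in experiment 1, 23 were called higher and 11 lower, beside 8.67% and 8.27% of all genes. Inflammatory and leukocyte lists had medians nearer 0 in experiment 2. They were -0.58 and -1.09 for acute inflammation, -0.32 and -1.05 for macrophage markers and -0.09 and -0.60 for antigen presentation. Called lower in experiment 1 were 32 of 43, 26 of 41 and 12 of 24 of their tested genes, beside 8.27% of all genes. In experiment 2 it was 4 of 43, 4 of 42 and 1 of 25, beside 0.64% of all genes. The 1 antigen presentation gene was ctss2.1, which is also among the 4 macrophage markers. Of brain neuron genes 22 of 86 were called higher and 0 lower in experiment 1, where 8.67% of all genes were called higher. Astrocyte and radial glia genes gave 15 of 47 higher and 0 lower there. Neurotransmitter genes gave 9 of 103 higher and 1 lower, and myelin and oligodendrocyte genes 5 of 32 higher and 1 lower.

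A test of the difference between the experiments called 0 of 21208 genes (0%) by edgeR, with 1551 at an unadjusted p under 0.05, while DESeq2 called 35 and limma voom 1, capn9. acod1 was among the 35 (difference 4.78, DESeq2 adjusted p = 0.019), its fold change being -5.12 in experiment 1 and -0.65 in experiment 2, but not by edgeR (adjusted p = 0.167). nupr1b (-2.45 and -0.26) and tfa were also among the 35, with DESeq2 adjusted p = 0.0187 each. So were 2 of the lower genes described above, sesn1 (difference -0.841, DESeq2 adjusted p = 0.0146) and mknk2b (difference -0.723, DESeq2 adjusted p = 0.0342). Their fall was larger in experiment 2. Among named genes with the smallest edgeR p for the difference, anpepb, an aminopeptidase of the intestinal brush border, was at 1.74 (SE 0.55, edgeR adjusted p = 0.0862) in experiment 2 and at -1.46 in experiment 1 (edgeR adjusted p = 0.154 for the difference). muc5.1, a gel-forming mucin gene, was at 128, 166, 197 and 502 CPM in axenic and at 206 to 305 CPM in re-colonized heads of experiment 2 (0.0034, SE 0.35), against -2.28 in experiment 1 (edgeR adjusted p = 0.167 for the difference). RNA selection, laboratory and larvae differed between the experiments and cannot be told apart.

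Conventional heads were measured in the same experiment. Axenic against conventional heads gave 1237 of 20169 genes (6.13%), 804 higher and 433 lower, and shares the axenic libraries with the comparison above. Re-colonized against conventional heads gave 0 calls by edgeR (0%), with 2751 genes at an unadjusted p under 0.05. Mean levels in conventional heads were 5.93 CPM for cpt1ab, 10.8 CPM for hmgcra, 71.3 CPM for col11a2, 6.94 CPM for enam and 413 CPM for sesn1, beside 5.33, 11.6, 108, 7.50 and 377 CPM in re-colonized and 25.3, 75.8, 564, 50.0 and 151 CPM in axenic heads. For irg1l the means were 103, 38.64 and 3.88 CPM in conventional, re-colonized and axenic heads. For tfa they were 52.6, 28.8 and 172 CPM in conventional, re-colonized and axenic heads. Of 53 complement and acute-phase genes 11 were called higher against conventional heads, beside 27 against re-colonized ones (re-colonized against conventional median -0.44). Over all 20169 genes tested, 804 were called higher against conventional heads, beside 656 (3.25%) against re-colonized ones. Matrix genes (44 beside 36 of 73) and cell cycle genes (47 beside 44 of 78) also had more against conventional heads, as all genes did. apoa1b, oxt and hbae1.3 were not called against conventional heads. Their log2 fold changes were 0.84, 0.26 and 1.00 there, and -1.09, -0.68 and -0.72 for re-colonized against conventional heads.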

How the data were processed

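Estimated counts per gene were deposited for 18 libraries of each experiment, not normalized, and 17.3% of values in experiment 2 lay more than 0.01 from a whole number, so they were rounded before testing. Per the submitters' processing notes, bcl2fastq, Partek 8.0.19.0428 and STAR 2.5.3a were used with GRCz11. Neither the annotation nor the use of strand in counting is stated. No column lacked a sample (0). The planned test, chosen for whole counts, was used unchanged.

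Genes were tested with edgeR 4.0.16 (R 4.3.3) using the quasi-likelihood method. The model held 1 mean for each group and all 18 libraries of experiment 2, scaled by TMM. Filtering by filterByExpr left 20169 of 25077 genes, and tests were two-sided with Benjamini-Hochberg adjustment over all of them. The SE was taken as |log2 fold change| over the root of the F statistic. Experiment 1 was fitted alike, and differences between experiments as an interaction over 36 libraries. The procedure was tested on simulated counts. Every pair of libraries differed by more than sampling noise (lowest chi-square per degree of freedom 29.4).

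Of 2214 symbols on 40 gene lists, 1991 were in the table and 1848 were tested. The comparison and the lists were chosen with earlier results of these data known, so a list's direction is no independent evidence. Lists are described by counts and medians only. Some genes are on more than 1 list, so the counts of different lists are not independent. Genes to be named needed a proper symbol and at least 1 CPM on average. Chosen were those with the largest fold changes, the smallest adjusted p, calls in both experiments or the smallest p for the difference, up to 4 per list, and the 10 most abundant. Other list members and capn9, acod1 and their like were named after their values were seen. Alternatives were DESeq2 1.42.0, limma 3.58.1 (voom, quality weights), size factors from DESeq2, no filter, a minimum mean of 1 CPM, the 11 libraries alone, the replicate number as a block, and leaving out each library or re-colonized 1 and 7 together. No sequences are printed.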

Additional observations from a re-analysis of the deposited data

Results flagged for a closer look

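A library was taken as far from its group where its gap to the nearest other one, over the group's range, passed Dixon's critical value. This held for 23 of 458 values tested, and chance alone gives about 1 in 20.

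Axenic 7 was high for ifi35 (2.19 CPM against 0.299 to 0.409 in the other 3 axenic libraries), mcm3 (100 against 52.7 to 56.2) and atp1b4 (41.5 against 29.8 to 30.7). It was low for rag2 (0.874 against 2.04 to 2.35), uqcr10 (53.8 against 85.8 to 94.0), atp5mf (60.9 against 92.1 to 94.5), the summed ribosomal protein genes (42300 against 78700 to 85200) and the summed nuclear genes of oxidative phosphorylation (4490 against 6850 to 6890). Axenic 4 was low for cybb (0.604 against 1.69 to 2.03) and penka (0.537 against 1.74 to 2.11).

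Re-colonized 1 was low for the pancreas genes cpa5 (5.7 CPM against 86.4 to 482) and pdia2 (0.105 against 1.24 to 5.21), for spink4 (1.34 against 12.5 to 48.7), rplp1 (4880 against 11500 to 19600) and hsp90ab1 (7500 against 11900 to 14900). Its sums were low for liver (4350 against 11900 to 20000), intestine (548 against 1710 to 2970), exocrine pancreas (336 against 4970 to 26600), fatty acid oxidation (999 against 2140 to 3630) and glucose and glycolysis genes (6180 against 12100 to 18900). Re-colonized 4 was high for fosl1a (13.7 against 2.54 to 3.74), re-colonized 3 low for gnat1 (8.71 against 15.8 to 24.3) and re-colonized 6 low for adra2a (1.98 against 2.74 to 3.45).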

How the results depend on the processing

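The 785 calls (656 higher, 129 lower) ranged from 165 to 794 (139 to 667 higher, 26 to 131 lower) when each library was left out in turn, lowest without axenic 7, followed by 418 without axenic 4, 451 without re-colonized 7 and 473 without re-colonized 3. Without axenic 1 or 3, 74 and 77 genes were called lower. Without re-colonized 1 and 7 together 368 were called (285 and 83), of which 346 were among the 785. Of the 165 without axenic 7, 164 were. The counts of lower genes were 292 with DESeq2, 195 with limma voom and 227 with the replicate number as a replicate block, which called 1093 in all. With DESeq2, 73.5% of calls were higher against 83.6%. Same-numbered libraries did not all deviate together (correlations of -0.172, 0.29, 0.284 and 0.16, and axenic 3 and 4 alone correlated best with their own number). So few values cannot decide whether the numbers mark pairs, and the main test did not pair the libraries. Genes called in both experiments were 279 in place of 514 without re-colonized 1 and 7. The difference between experiments called 35 genes with DESeq2 and 1 with limma voom against 0. The cause of these differences was not tested. Leaving out a library did not always lower the number of calls, which was 794 without re-colonized 2 and 785 with all libraries.

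Leaving out each library in turn gave 20 to 47 higher calls for cell cycle genes, 16 to 38 for matrix, 9 to 24 for cartilage and bone, 6 to 32 for complement, 8 to 18 for liver, 9 to 18 for fatty acid oxidation, 4 to 10 for sterol synthesis, 3 to 21 for skin and 2 to 14 for muscle. Lower calls were 5 to 14 for fasting genes, 1 to 4 for acute inflammation and 0 to 3 for macrophage markers.

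Of the 105 named genes that were called, 53 were called in every setting, 56 without axenic 7 and 78 without re-colonized 1 and 7. With 4 axenic libraries and a coefficient of variation of 35.5%, a change that was not called is not shown to be absent.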

Other observations

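Defence genes of the mucosa did not move one way. Of 51 tested, 5 were called higher and 1 lower (nox1), and the median log2 fold change was 0.13. Leaving out each library gave 1 to 4 higher and 0 to 2 lower calls. defbl1, a beta-defensin, was at 10.5, 8.26, 6.11 and 4.21 CPM in axenic and at 0.703 to 4.4 CPM in re-colonized libraries (1.65, SE 0.38, edgeR adjusted p = 0.0157). Axenic 7, highest for many called genes, was the lowest of its group here and lay within the re-colonized range. pigr, the receptor that carries polymeric antibodies across epithelia, was at 1.84 to 3.66 CPM against 0.265 to 1.54 CPM, without overlap (1.54, SE 0.43, edgeR adjusted p = 0.0435). leap2, a peptide of the liver (1.99), pglyrp2, a peptidoglycan recognition protein (2.63), and hpx were called as well.

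Of 40 ionocyte genes 1 rose, beside 3.25% of all genes, and it was atp1a1a.2, a sodium pump subunit. It was at 138, 121, 168 and 149 CPM in axenic and at 53.9 to 88.2 CPM in re-colonized libraries, far apart (1.1, SE 0.19, edgeR adjusted p = 0.00159), while its log2 fold change in experiment 1 was 0.042. DESeq2 called the difference between experiments (adjusted p = 0.035), and edgeR called no such difference in any gene. By position atp1a1a.2 overlaps the related gene atp1a1a.1 (0.25, not called), so its values are uncertain. Of 62 glucose and glycolysis genes 7 rose (median 0.25), with 1 called higher without axenic 4 or without axenic 7 and 3 without re-colonized 7, among them eno1b, an enolase (0.86), and slc2a2, a glucose transporter (1.15). Of 57 xenobiotic genes 5 rose (median 0.48), among them gstp2, a glutathione transferase (1.70), and without axenic 7 it was 0. Of 39 hypothalamic and pituitary genes 1 rose, oxt, again beside 3.25% of all genes.

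Lists without a call by edgeR were neutrophil markers (4 of 21 at an unadjusted p under 0.05), lymphocyte and thymus genes (0 of 18), exocrine pancreas enzymes (0 of 24), pancreatic transcription factors and hormones (0 of 17), visual cycle genes (4 of 37), ribosomal protein genes (0 of 81), mitochondrially encoded genes (4 of 13) and the circadian clock (10 of 46). Over all genes, 2959 of 20169 tested were at an unadjusted p under 0.05 by edgeR, and these list counts stand beside that share. DESeq2 called 3 and limma voom 2 clock genes, limma voom 1 visual cycle gene, and neither tool any gene of the other lists named here.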
